A study of Mus musculus with 4 samples.

Results

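High mobility group (HMG) proteins are small, abundant proteins of chromatin that carry no enzyme activity and change how DNA and nucleosomes are arranged. This account covers 8 of their genes in mouse T cells, chosen by name from the 23480 gene identifiers of the deposited tables: the nucleosome-binding genes Hmgn1, Hmgn2, Hmgn3 and Hmgn5, the HMG-box genes Hmgb1, Hmgb2 and Hmgb3, and the AT-hook gene Hmga1. The 8 genes were selected on earlier results of the same Th9 against Th9+TLA1 contrast in these libraries, so their values below are a description. The T cells had been cultured under Th9 conditions alone (2 libraries) or under Th9 conditions with TLA1 (2 libraries), the spelling in the sample labels for the cytokine that the series title calls TL1A. Helper T cells grown this way are called Th9 cells after the interleukin 9 they secrete, and TL1A belongs to the tumour necrosis factor cytokines. The question was how RNA levels in Th9 cultures differed when the cytokine was added, and which HMG genes had the library pattern of the proliferation marker Mki67. The labels give no mouse strain, age, dose or culture time, and they do not state whether replicates are separate animals or cultures. The p-values therefore cover the spread between these libraries only, and that spread may be technical.

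HMGN proteins bind the nucleosome core and compete with linker histone H1, which loosens local chromatin. HMGB proteins carry paired HMG boxes that insert into the minor groove and bend DNA, and HMGB1 released from cells also acts as an inflammatory signal through receptors such as TLR4 and AGER. HMGA proteins hold AT-rich DNA through short AT-hook motifs. Transcripts of several of these genes, Hmgb2 and Hmgn2 among them, are known to be abundant in dividing cells, which is why Mki67, the gene of the Ki-67 protein of cycling cells, was set beside them.

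The libraries held 4041633 and 3167270 reads counted in genes (Th9) and 2979482 and 3081187 (Th9+TLA1), and 3 reads corresponded to 0.742 to 1.01 CPM (reads scaled to a common library total), so a gene listed at 0 may have been present up to about that level, as far as counting error goes. T cell markers were present: the 7 of 10 listed markers that were matched, which include Cd3d, Cd4 and Lck, summed to 2254 and 2458 CPM in Th9 and to 2860 and 2736 CPM with TLA1. Erythroid markers were at 0 in every library (5 of 5), as were 4 of 7 myeloid markers (Lyz2, Csf1r, Cd14 and C1qa), 3 of 4 natural killer cell markers (Ncr1, Klrb1c and Klrk1), 3 of 4 mast cell and basophil markers (Mcpt4, Cpa3 and Fcer1a), 1 of 5 dendritic cell markers (Siglech) and 2 of 5 B cell markers (Ms4a1 and Pax5). B cell markers summed to 10.4 and 12.9 CPM in Th9 and to 28.9 and 29.2 CPM with TLA1, dendritic cell markers to 5.69 and 3.16 against 15.4 and 8.76 CPM, and the other lists, including CD8 T cells, to at most 13.3 CPM in any library. The part of these differences in the HMG values was not tested. In bulk RNA, fewer cells of a type and less RNA per cell cannot be told apart.

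The promoters of 4 HMG genes and of Mki67 are shown because these genes differ in whether their RNA had the library order of Mki67, as described further on: Hmgn2 and Hmgb3 had it, Hmgb2 and Hmgn1 did not. Each window runs from 250 bases before to 50 bases after the RefSeq start in GRCm38.p6, 5′ to 3′ on the gene's strand. The windows lie at chr4:133967942-133968241 on the minus strand (Hmgn2), chrX:71555667-71555966 on the plus strand (Hmgb3), chr8:57511593-57511892 on the plus strand (Hmgb2), chr16:96127676-96127975 on the minus strand (Hmgn1) and chr7:135716330-135716629 on the minus strand (Mki67). Capitals mark letters of 4 motifs on either strand: the CCAAT box (CCAAT), the CHR element found in many cell cycle promoters (TTTGAA, and equally its variant TTCGAA), an E2F-type site (the spelling TTCCCGC, the spelling TTGGCGC, the spelling TTCGCGC and the spelling TTGCCGC) and the GC box (GGGCGG).
Hmgn2: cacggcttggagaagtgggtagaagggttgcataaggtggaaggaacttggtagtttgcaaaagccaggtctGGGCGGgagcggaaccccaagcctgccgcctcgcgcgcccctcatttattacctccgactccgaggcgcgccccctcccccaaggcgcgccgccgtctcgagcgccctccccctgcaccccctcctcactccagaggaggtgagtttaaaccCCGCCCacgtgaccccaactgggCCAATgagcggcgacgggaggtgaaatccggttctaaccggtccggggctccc
Hmgb3: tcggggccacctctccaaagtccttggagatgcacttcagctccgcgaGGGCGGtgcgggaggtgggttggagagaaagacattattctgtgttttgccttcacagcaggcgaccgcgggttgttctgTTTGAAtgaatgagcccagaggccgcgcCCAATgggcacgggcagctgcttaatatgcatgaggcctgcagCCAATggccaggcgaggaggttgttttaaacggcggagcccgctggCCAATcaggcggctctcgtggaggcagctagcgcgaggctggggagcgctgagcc
Hmgb2: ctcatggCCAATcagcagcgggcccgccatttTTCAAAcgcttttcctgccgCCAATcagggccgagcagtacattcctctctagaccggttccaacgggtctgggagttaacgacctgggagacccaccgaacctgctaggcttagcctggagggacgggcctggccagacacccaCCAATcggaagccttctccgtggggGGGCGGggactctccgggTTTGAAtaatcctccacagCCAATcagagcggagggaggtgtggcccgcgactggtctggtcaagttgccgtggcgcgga
Hmgn1: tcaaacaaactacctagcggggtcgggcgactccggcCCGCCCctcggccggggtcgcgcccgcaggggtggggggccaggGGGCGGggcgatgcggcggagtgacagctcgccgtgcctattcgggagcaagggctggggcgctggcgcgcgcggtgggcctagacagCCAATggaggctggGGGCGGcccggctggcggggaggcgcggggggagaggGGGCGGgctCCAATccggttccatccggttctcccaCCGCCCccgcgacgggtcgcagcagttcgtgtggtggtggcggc
Mki67: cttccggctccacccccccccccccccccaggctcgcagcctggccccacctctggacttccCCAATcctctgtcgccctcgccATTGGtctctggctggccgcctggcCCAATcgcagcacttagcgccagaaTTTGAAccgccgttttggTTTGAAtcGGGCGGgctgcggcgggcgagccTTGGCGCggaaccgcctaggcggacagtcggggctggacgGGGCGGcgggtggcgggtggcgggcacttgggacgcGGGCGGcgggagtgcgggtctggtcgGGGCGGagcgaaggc

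Among the 7 members with an entry in the promoter table, CHR letters were found in Hmgb2 (2 matches, at positions -218 and -30 from the start) and in Hmgb3 (1 match, at position -122). Mki67 had 2, at positions -116 and -98. Over all 32851 promoter windows of this length, 19.2% held such letters, 37.4% a CCAAT box, 35.7% a GC box and 9.57% an E2F-type site. CCAAT boxes numbered 4 in Hmgb2, 3 in Hmgb3, 3 in 1 of the 2 Hmgb1 windows and 0 in the other, 2 in Hmgn1, 2 in Hmgn5 and 1 in Hmgn2, against 3 in Mki67. An E2F-type site was found in Mki67 alone among these genes. No motif in the scanned windows separated Hmgn2 and Hmgb3 from the other members: Hmgn2 held no CHR letters, while Hmgb2 did. In these windows no reverse CCAAT box shared letters with an E2F-type site. A match is a string of letters and not a measured binding site, and Hmgn3 has no entry in the promoter table. The windows of Hmgn2 and Hmgb1 lie wholly inside the gene spans given further on. Sequence before the 5′ ends of those spans was therefore not scanned.

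With TLA1, RNA of Hmgn2, which codes for a nucleosome-binding protein that loosens chromatin fibres, fell 2.81-fold, and it was the only member called at an adjusted p under 0.05 (limma, Benjamini-Hochberg over all 10324 tested genes). A filter on low reads kept 6 of the 8 members. All 6 had a lower mean with TLA1, with a median log2 difference of -0.59 (Th9+TLA1 minus Th9), beside -0.01 over all tested genes. The single call was 1 of 6 tested members, beside 0.252% of all tested genes called lower and 0.891% called higher. In 5 of the 6 tested members both Th9+TLA1 libraries lay below both Th9 libraries, beside 23.7% of all tested genes. Because the choice of members used this contrast, nothing is read from these counts.

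**Figure D1:**
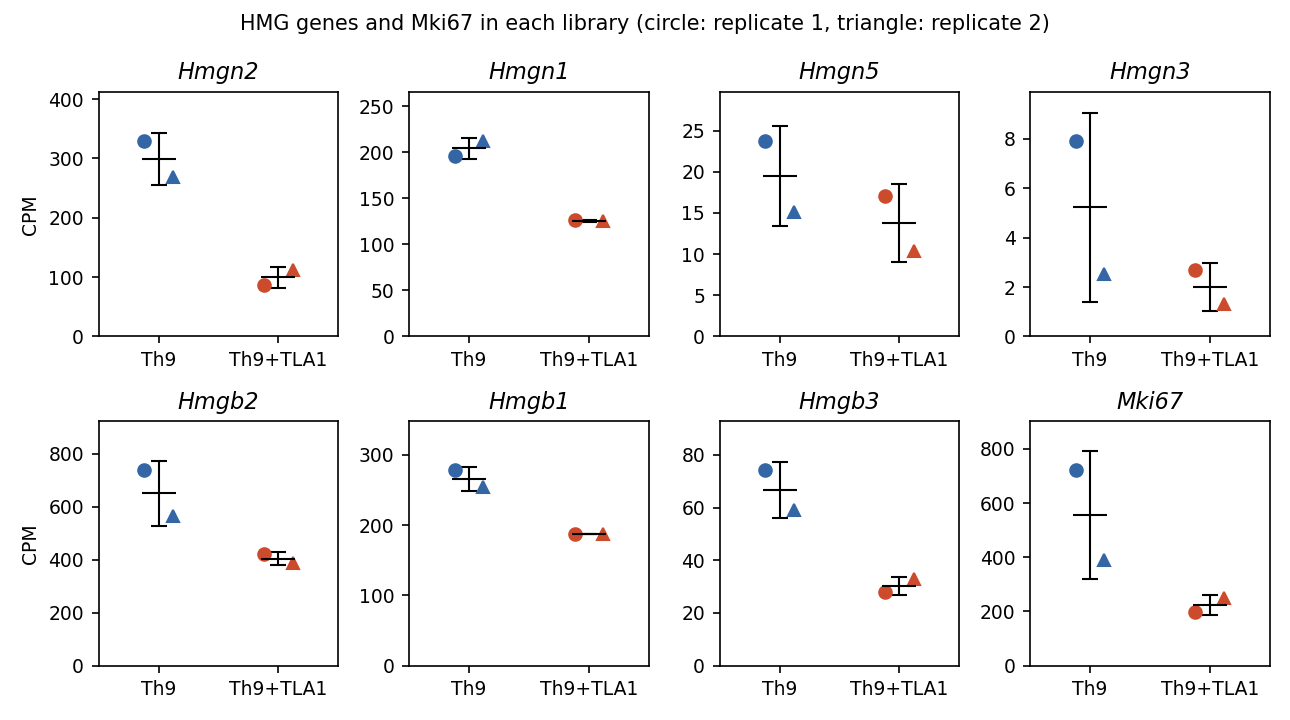
Deposited CPM (vertical axes, each starting at 0) of 7 HMG genes and Mki67 in the 2 Th9 (blue) and 2 Th9+TLA1 (red) libraries. Horizontal marks and bars are the mean and SD of 2 libraries, circles replicate 1 and triangles replicate 2. The groups are apart for Hmgn2, Hmgn1, Hmgb2, Hmgb1, Hmgb3 and Mki67 and overlap for Hmgn5 and Hmgn3, and the 2 Th9 libraries are farthest apart, relative to their mean, for Hmgn3, Mki67 and Hmgn5.

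Hmgn2 stood at 330 and 268 CPM in the Th9 libraries and at 86.9 and 112 CPM in the Th9+TLA1 libraries. All Th9 values were above all Th9+TLA1 values, and the gap between the groups was larger than that within either. The log2 difference was -1.49 ± 0.20 (SE), and the means were 299 ± 43.3 and 99.6 ± 17.9 CPM (SD, n = 2 each). Without Th9 replicate 2 the log2 difference was -1.58 and the gene was no longer called, while the call held without any one of the other libraries and under every other setting tried. The gene lies at chr4:133964738-133968650 on the minus strand (GRCm38), and 30.0% of the 100-base windows of its transcripts also occur in transcripts of 6 other genes, 5 of them annotated pseudogenes. The counting of reads that match several copies is not described by the labels or notes, so levels of members with such copies are uncertain.

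Hmgn1, a paralog of Hmgn2 with the same nucleosome-binding domain, was at 196 and 212 CPM in Th9 and at 126 and 125 CPM with TLA1. The groups did not overlap, and the Th9+TLA1 libraries were nearly equal. Its log2 difference was -0.60 ± 0.19 (SE), and it was not called. Only 2.41% of its transcript windows occur in another gene, the lowest share among the members. The gene lies at chr16:96120618-96127729 on the minus strand.

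The balance between both nucleosome-binding genes differed between the groups. Per kilobase of exon, the ratio of Hmgn2 to Hmgn1 was 1.77 and 1.33 in the Th9 libraries and 0.725 and 0.946 with TLA1. Hmgn2 RNA was thus above Hmgn1 RNA in both Th9 libraries and below it in both Th9+TLA1 libraries. Without division by length the ratio was 1.68 and 1.26 in Th9 and 0.689 and 0.899 with TLA1. Of the Hmgn2 transcript windows, 30.0% occur in other genes, against 2.41% for Hmgn1, and the counting of such reads is not described. Which of both genes had the higher level is therefore uncertain, above all in Th9+TLA1 replicate 2. This ratio is a description of the 4 libraries and was not tested.

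Hmgn5, an X-linked HMGN gene whose protein has a long acidic tail, was at 23.8 and 15.2 CPM in Th9 and at 17.1 and 10.4 CPM with TLA1. The groups overlapped, since Th9+TLA1 replicate 1 lay above Th9 replicate 2. The log2 difference was -0.39 ± 0.45 (SE), a standard error larger than the difference, and the gene was not called. Hmgn3 was at 7.92 and 2.53 CPM in Th9 and at 2.69 and 1.30 CPM with TLA1, from 32, 8, 8 and 4 reads. Its groups also overlapped, most of the difference in means came from Th9 replicate 1, and the gene did not pass the filter. The 4 HMGN members together summed to 557 and 499 CPM in Th9 and to 233 and 249 CPM with TLA1, of which Hmgn1 and Hmgn2 made up nearly all.

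Hmgb2, the HMG-box gene best known from dividing and immature cells, had the highest level of the members, with 738 and 565 CPM in Th9 and 421 and 387 CPM with TLA1. The groups did not overlap, and the Th9 libraries were farther apart than the Th9+TLA1 libraries. The log2 difference was -0.58 ± 0.18 (SE), and the gene was not called. It lies at chr8:57511907-57515999 on the plus strand, and 19.3% of its transcript windows occur in 5 pseudogenes.

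Hmgb1, the most widely expressed gene of its family, was at 278 and 254 CPM in Th9 and at 187 CPM in both Th9+TLA1 libraries. The groups did not overlap, and replicates were close in both. The log2 difference was -0.41 ± 0.18 (SE), and the gene was not called. Its transcript windows are shared with the largest number of other genes, 52, of which 51 are annotated pseudogenes, for 21.0% of windows. The gene's span at chr5:149046702-149184489 on the minus strand overlaps Uspl1 on the other strand, and the library kit does not mark strand, but only 1.57% of its exon bases lie in exons of other genes.

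Hmgb3, an X-linked HMG-box gene known from blood progenitors, was at 74.2 and 59.0 CPM in Th9 and at 27.9 and 32.8 CPM with TLA1. Both Th9+TLA1 libraries were below both Th9 libraries. The log2 difference was -1.02 ± 0.28 (SE), the second largest among the members, and the gene was not called. It lies at chrX:71555918-71560676 on the plus strand, and 14.3% of its transcript windows occur in 3 pseudogenes. Relative to Hmgb1, the ratio of Hmgb3 per kilobase was 0.60 and 0.52 in Th9 and 0.34 and 0.39 with TLA1, so the groups did not overlap for this ratio. The ratio of Hmgb2 to Hmgb1 per kilobase was 4.44 and 3.72 in Th9 and 3.76 and 3.46 with TLA1, and here the groups overlapped.

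Hmga1, the AT-hook gene at chr17:27556497-27563674 on the plus strand, was all but absent from the tables, with 0 and 1 reads in Th9 and 0 and 1 reads with TLA1. All 4 values lay under the level of 3 reads, so no fold is given. Its near copy Hmga1b, which shares 40.1% of the transcript windows of Hmga1, was at 0 in every library. AI413582, a gene on the other strand that overlaps Hmga1, was at 18.6 and 15.8 CPM in Th9 and at 17.5 and 13.6 CPM with TLA1, and exons of other genes cover 5.84% of the exon bases of Hmga1. The part of shared sequence and overlap in the low count was not tested, so the tables do not show that these cells lack Hmga1 RNA. Of the other family genes, Hmga2 had 1 read in Th9 replicate 1 and 1 read in Th9+TLA1 replicate 1, Hmgb4 was at 0 in every library, and Hmgn4 was not matched to an identifier.

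**Figure D2:**
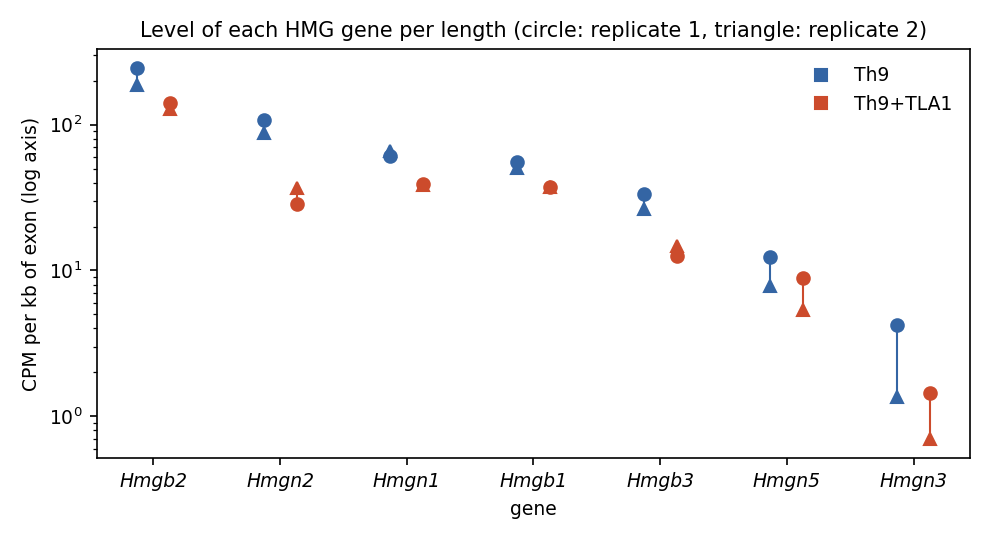
Deposited CPM per kilobase of exon (log axis) of 7 HMG genes in the Th9 (blue) and Th9+TLA1 (red) libraries, circles for replicate 1 and triangles for replicate 2. Hmgb2 is highest in both groups, and Hmgn2 lies above Hmgn1 and Hmgb1 in Th9 and below them with TLA1.

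Levels were compared between genes per kilobase of exon, using GENCODE exon lengths. In Th9 the order was Hmgb2 (217 ± 40.9 CPM per kilobase, SD, n = 2), Hmgn2 (97.7 ± 14.1), Hmgn1 (63.4 ± 3.63), Hmgb1 (53.0 ± 3.41), Hmgb3 (29.8 ± 4.81), Hmgn5 (10.1 ± 3.14) and Hmgn3 (2.79 ± 2.04). No 2 neighbours in this order had overlapping libraries in Th9. With TLA1 the order was Hmgb2 (134 ± 7.85), Hmgn1 (39.0 ± 0.273), Hmgb1 (37.2 in both libraries), Hmgn2 (32.6 ± 5.86), Hmgb3 (13.6 ± 1.56), Hmgn5 (7.11 ± 2.46) and Hmgn3 (1.07 ± 0.525). Hmgn2 was thus in the second place in Th9 and in the fourth with TLA1. These places are uncertain, since 30.0% of the windows of Hmgn2 transcripts also occur in other genes. With TLA1 the means of Hmgb1 and Hmgn2 differed by less than the SD of Hmgn2, although both Hmgn2 libraries lay below both of Hmgb1. Hmgn5 and Hmgn3 had the widest spread relative to their means in both groups.

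Mki67 was at 721 and 389 CPM in Th9 and at 197 and 250 CPM with TLA1. The groups did not overlap, but Th9 replicate 1 was far above Th9 replicate 2. The log2 difference was -1.16 ± 0.25 (SE), and Mki67 fell 2.24-fold at an adjusted p of 0.0464 (limma). This call sat close to the threshold: it was lost without Th9 replicate 1 (log2 difference -0.76), without Th9 replicate 2 (-1.55) and without Th9+TLA1 replicate 2 (-1.32). It was also lost with total count scaling, a pseudocount of 0.5, no filter and edgeR's quasi-likelihood test on recovered reads.

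From high to low, the order of the libraries for Mki67 was Th9 replicate 1, Th9 replicate 2, Th9+TLA1 replicate 2 and Th9+TLA1 replicate 1. Of the 6 tested members, 2 had this order, Hmgn2 and Hmgb3, under all 4 scalings tried. Hmgb1 and Hmgb2 had it in Th9 and the reverse with TLA1, Hmgn1 had the reverse in both groups, and in Hmgn5 the groups were mixed. An order of 4 libraries is a coarse measure and gets no test. The share of all tested genes with this order was not computed, so the count of 2 has no background. With TLA1 the order of Hmgb1 rests on a step of 0.01 on the log2 scale and that of Hmgn1 on 0.03. That of Hmgb3 rests on 27.9 CPM in replicate 1 against 32.8 CPM in replicate 2. The 4 scalings do not cover counting error in such steps.

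The size of the steps differed from Mki67 even where the order was shared. Within Th9, Mki67 was higher in replicate 1 by 0.80 on the log2 scale, Hmgn2 by 0.21, Hmgb3 by 0.24 and Hmgb2 by 0.30, while Hmgb1 differed by 0.05 and Hmgn1 by -0.20. Within Th9+TLA1, replicate 1 minus replicate 2 was -0.33 for Mki67, -0.35 for Hmgn2 and -0.21 for Hmgb3, and it was 0.13 for Hmgb2, 0.01 for Hmgb1 and 0.03 for Hmgn1. Hmgn5, the tested member with the fewest reads, was higher in replicate 1 by 0.53 within Th9 and by 0.69 within Th9+TLA1. Its Th9 step was thus the nearest to that of Mki67, while its Th9+TLA1 step had the opposite sign. The within-group steps of Hmgn2 and Hmgb3 therefore had the sign of those of Mki67, with a much smaller step in Th9. The ratio of Hmgn2 to Mki67 in CPM was 0.457 and 0.689 in Th9 and 0.441 and 0.449 with TLA1, where 3 of the 4 libraries were nearly equal and Th9 replicate 2 stood higher. The ratio of Hmgb2 to Mki67 was 1.02 and 1.45 in Th9 and 2.13 and 1.55 with TLA1, so Mki67 was lower relative to Hmgb2 in both Th9+TLA1 libraries.

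**Figure D3:**
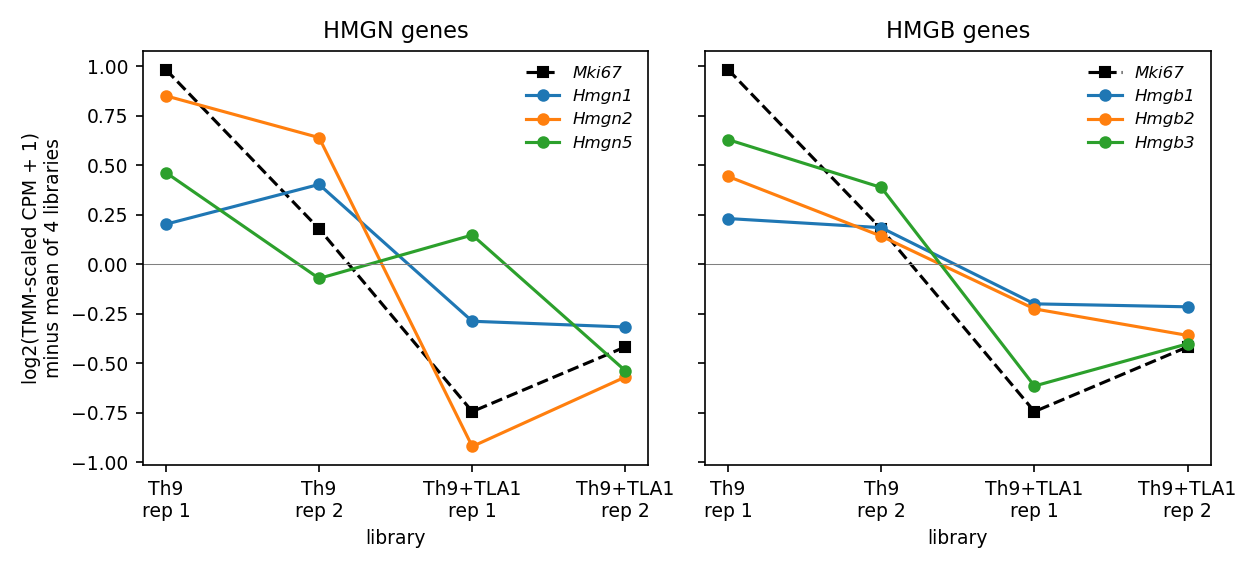
Log2(TMM-scaled CPM + 1) of the 3 tested HMGN genes (left) and 3 HMGB genes (right) in each library, each minus its mean over the 4 libraries, with Mki67 as a dashed black line. Hmgn2 and Hmgb3 share the library order of Mki67, Hmgb1 is nearly flat within each group, Hmgn1 is higher in replicate 2 within Th9, and Hmgn5 does not separate the groups.

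As a second description, distances were taken between centred log2 profiles over the 4 libraries, with 6930 tested genes of a mean of at least 20 CPM, predicted models left out, as the candidates. Hmgn5 lies below that mean, so it is no candidate itself, and its distances were taken from its own profile. Hmgb3 was nearest to Mki67, at 0.43 log2 units, followed by Hmgn2 at 0.53 and Hmgb2 at 0.75. Hmgn1 at 0.94, Hmgb1 at 0.95 and Hmgn5 at 1.07 were farther. Mki67 was not among the 5 closest patterns to any member. Of the 6930 candidates, 44 were nearer to Hmgn2 than Mki67 was, 194 were nearer to Hmgb3, and 3233 were nearer to Hmgb2. For Hmgn1 this count was 4767, for Hmgn5 5045 and for Hmgb1 5642. The 5 genes closest to Hmgn2 were Rif1 (0.16), Gpatch4 (0.17), Slc25a37 (0.19), Xrcc5 (0.21) and Zfp644 (0.22). Those closest to Hmgb2 were Tra2a (0.04), Tyms (0.05), Fam160a2 (0.06), Isg20l2 (0.06) and Haus1 (0.07), and those closest to Mki67 were Bola3 (0.08), Rbmx (0.16), Pfas (0.19), Phf20l1 (0.21) and Smpd4 (0.21). These distances include the step between the groups, on which the members were chosen, so they are not independent of that choice. With 4 libraries such likeness says nothing of shared control, and how common it is among all genes was not computed.

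Cell cycle genes had lower means with TLA1, as the members did. Of 28 proliferation markers, all of them tested, 28 had a lower mean with TLA1, with a median log2 difference of -0.49. In 21 of them both Th9+TLA1 libraries lay below both Th9 libraries, beside 23.7% of all tested genes. Limma called 1 lower, Mki67, beside 0.252% of all tested genes, and 15 were lower at an unadjusted limma p under 0.05, beside 8.14% of all tested genes. On recovered reads DESeq2 called 2 lower, voom 1 and edgeR 0. Their summed level was 6729 and 5216 CPM in Th9 and 3767 and 4138 CPM with TLA1. Of 31 S phase genes, 30 had a lower mean with TLA1 and 1, Ccne1, a higher mean. In 25 of them both Th9+TLA1 libraries lay below both Th9 libraries, beside the same 23.7%, and the median was -0.46. None was called by limma, 14 were lower at an unadjusted limma p under 0.05 beside the same 8.14%, and DESeq2 called 3 of them lower while edgeR and voom called 0. Mcm6, a subunit of the replicative helicase and the most abundant of the list, was at 974 and 1086 CPM in Th9 and at 721 and 781 CPM with TLA1. The log2 difference of Hmgn2 (-1.49 ± 0.20 SE) lay below that of every gene of both lists, while those of Hmgb2 and Hmgn1 lay within their range. The nearest gene was Mki67 (-1.16 ± 0.25 SE), and whether Hmgn2 and Mki67 differ was not tested. Without Th9 replicate 2, Hmgn2 stood at -1.58 and Mki67 at -1.55. Both lists, like the members, were chosen with earlier results of these data known, so their counts are a description and no enrichment is read from them. The part of the cell cycle genes in the HMG differences was not tested.

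**Figure D4:**
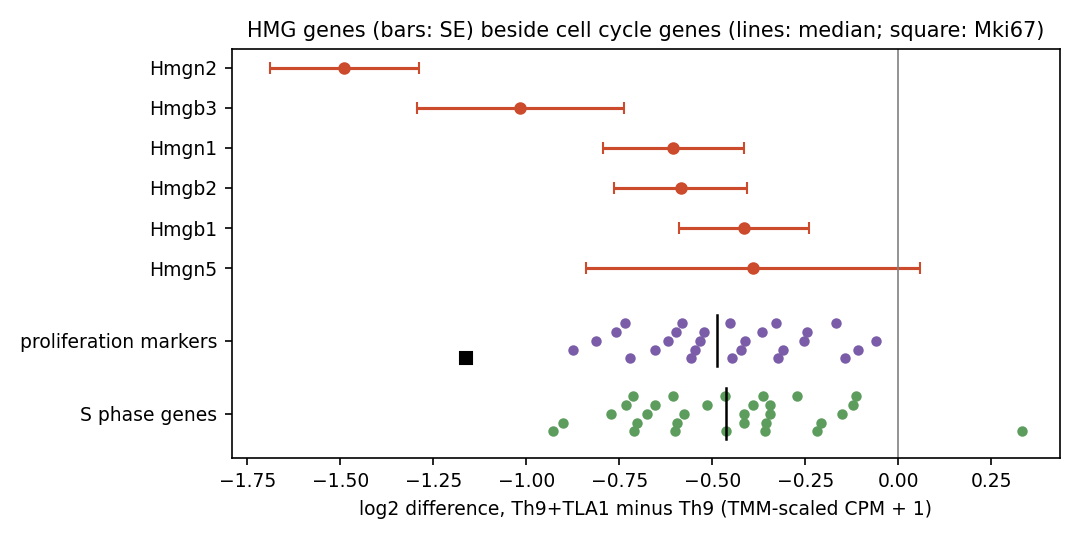
Log2 difference (Th9+TLA1 minus Th9, TMM-scaled CPM + 1) of the 6 tested HMG genes with bars of 1 SE, above single genes of the 28 proliferation markers and 31 S phase genes, whose vertical lines are medians. The square is Mki67. Hmgn2, chosen with this contrast known, lies to the left of every cell cycle gene, and the medians of the lists are -0.49 and -0.46.

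Other lists give the chromatin context, each to be read beside the 0.252% of all tested genes called lower and 0.891% called higher, and the 8.14% lower and 8.54% higher at an unadjusted p under 0.05. These lists were also chosen with earlier results of these data known, so their counts are a description. Among 20 tested genes that carry an HMG box but belong to no member family, 12 had a lower and 8 a higher mean with TLA1, none was called by limma (4 lower at an unadjusted p under 0.05), and the median log2 difference was -0.21. On recovered reads DESeq2 called 2 of them lower, voom 1 and edgeR 0. Ssrp1, a subunit of the histone chaperone FACT and the most abundant of them, was at 584 and 568 CPM in Th9 and at 448 and 510 CPM with TLA1. The linker histone genes, whose H1 proteins compete with HMGN proteins, had 4 tested members, all with a lower mean and none called by limma, edgeR, DESeq2 or voom (0 at an unadjusted p under 0.05), and H1f0, the most abundant, was at 208 and 144 CPM in Th9 and at 124 and 123 CPM with TLA1.

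Of 22 histone chaperone genes, 18 had a lower and 4 a higher mean, and none was called by limma (5 lower at an unadjusted p under 0.05), edgeR or voom, while DESeq2 called 1 lower, with a median of -0.38. The most abundant, Npm1, was at 1279 and 1132 CPM in Th9 and at 1319 and 1228 CPM with TLA1, so its groups overlapped on this scale. Of the 5 genes of the SET complex, the partner complex of Hmgb2, 4 had a higher and 1 a lower mean, and none was called by limma (1 lower at an unadjusted p under 0.05), edgeR, DESeq2 or voom. The lower one was Set itself, at 507 and 433 CPM in Th9 and at 327 and 295 CPM with TLA1, and its groups did not overlap.

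Calls among the listed genes outside the family came from chromatin architecture and from Mki67. Of 23 architecture genes, 21 had a lower and 2 a higher mean with TLA1, with 1 called in each direction by limma (6 lower and 1 higher at an unadjusted p under 0.05) and a median of -0.33. On recovered reads DESeq2 called 3 lower and 1 higher, and edgeR and voom each called 1 in each direction. Satb1, a T cell organizer of chromatin loops, rose 2.51-fold, from 500 and 686 CPM to 1417 and 1345 CPM (log2 difference 1.33 ± 0.20 SE, limma adjusted p = 0.00994). Its call was lost without Th9+TLA1 replicate 2 (adjusted p = 0.0533, limma) and without a filter on low genes. Lmnb1, the gene of lamin B1 of the nuclear envelope, fell 2.18-fold, from 159 and 167 CPM to 68.1 and 71.4 CPM (log2 difference -1.12 ± 0.20 SE, limma adjusted p = 0.0254). That call was lost without a filter, and without Th9 replicate 1, without Th9 replicate 2 and without Th9+TLA1 replicate 2, with log2 differences of -1.21, -1.03 and -1.15.

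Of 21 tested genes of ATP-dependent remodelling, 16 had a lower and 5 a higher mean, and the median was -0.21. None was called by limma (5 lower and 1 higher at an unadjusted p under 0.05), edgeR, DESeq2 or voom. The most abundant, Chd4, was at 269 and 289 CPM in Th9 and at 297 and 224 CPM with TLA1, which overlap. Of 11 genes for receptors and partners of extracellular HMGB1, 3 were tested and none was called by any of these tests (1 higher at an unadjusted limma p under 0.05), and 6, Tlr4 among them, were at 0 in every library. Cd24a, the most abundant, was at 31.9 and 46.7 CPM in Th9 and at 48.3 and 33.8 CPM with TLA1. Of 6 importin and exportin genes used in HMGB1 traffic, 4 had a lower and 2 a higher mean and none was called by any of these tests (1 lower at an unadjusted limma p under 0.05). Xpo1, the exportin for HMGB1, was at 658 and 643 CPM in Th9 and at 446 and 618 CPM with TLA1.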

How the data were processed

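RNA of 4 libraries of mouse T cells was converted to cDNA with a low-input kit that does not mark strand and sequenced on an Ion Torrent instrument, per the labels' protocols. The authors deposited CPM, one value for each of 23480 Entrez gene identifiers in each library. HTSeq 0.5.4, edgeR and the build mm10 appear in the submitters' processing notes. For the aligner and the annotation, the sources used here give no name. All non-zero values (100%) gave whole reads within 0.01 of a read. Symbols were matched for 23383 identifiers.

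A filter on the recovered reads (edgeR's filterByExpr, minimum count 10) kept 10324 genes. CPM divided by TMM factors (0.964 to 1.06), plus a pseudocount of 1, were fitted on the log2 scale with limma 3.58.1 (eBayes with a mean trend, group alone, R 4.3.3), and a call needed an adjusted p (Benjamini-Hochberg over all tested genes) under 0.05: 92 were higher and 26 lower with TLA1, of 1722 genes at an unadjusted p under 0.05. On this scale the change of a low gene is understated. CPM are printed as the authors deposited them. EdgeR 4.0.16's quasi-likelihood test on the recovered reads called 83 higher and 27 lower. Other alternatives were DESeq2 1.42.0, limma voom, other scalings, pseudocounts and filters, the replicate number as a block, and leaving out each library. Replicates differed by 12.2 (Th9) and 7.54 (Th9+TLA1) times sampling noise (chi-square per degree of freedom), so none was a copy. The fit was also run on simulated counts, whose outcome is not given here, and nothing above rests on that run.

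Exon lengths, gene spans and shared 100-base windows came from GENCODE vM21 (GRCm38), promoters from RefSeq (GRCm38.p6). The members and lists were chosen with earlier results of these data known. Named genes were every member, other family genes and Mki67; per list up to 3 called genes with the largest absolute log2 difference or, with none called, the most abundant; and the 5 nearest patterns to Hmgn2, Hmgb2 and Mki67. Uspl1, AI413582, Ccne1 and Tlr4, and markers named at 0, were added after their values were seen.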

Additional observations from a re-analysis of the deposited data

How the results depend on the processing

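With 2 libraries a group the counts of calls depended on single libraries. All 6 tested members kept a negative log2 difference under the 15 alternatives, and no member was called higher in any. The count of members called lower was 1 except without Th9 replicate 2, so leaving out each library gave 0 to 1. Over all genes, calls higher with TLA1 (92) became 52 with total count scaling, 25 without a filter and 182 with DESeq2, and 19 to 87 when leaving out each library. Calls lower (26) became 43 with upper quartile scaling, 42 with a pseudocount of 5, 8 without a filter and 91 with DESeq2, and 0 to 68 when leaving out each library. Listed genes outside the family called higher (1, Satb1) numbered 0 without a filter and 0 to 1 when leaving out each library. Those called lower (2, Mki67 and Lmnb1) numbered 1 with total count scaling, with a pseudocount of 0.5 and with edgeR, 0 without a filter, 4 with the filter at a mean of 10 CPM and 10 with DESeq2, and 0 to 4 when leaving out each library. Total count scaling moved the median of all genes from -0.01 to -0.10 (log2). Among genes not called, leaving out each library moved the log2 difference of Chd4 between -0.23 and 0.19, of Cd24a between -0.16 and 0.47 and of Xpo1 between -0.45 and 0.012, so their signs changed. The cause of these changes was not tested.

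Same-numbered replicates did not deviate together (correlation -0.01 over 10324 genes). This value cannot decide whether they were paired, since it comes from 4 libraries only, and the labels do not say. With the replicate block the calls were 147 higher and 78 lower over all genes. Of these, 1 lower call was among the members and 5 were among the listed genes outside the family. Where an arm kept 1 library, it was assumed to vary like the other group. At this depth (2979482 to 4041633 reads) Hmgn3 and Hmga1 lay too low to compare.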
